A study of Homo sapiens with 18 samples.

Results

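Axon guidance ligands and receptors were followed in 2 human medulloblastoma cell lines, D425 and D458, carrying short hairpin RNAs against EYA2 or a non-targeting hairpin. The genes were chosen by their symbols alone: the semaphorins of the classes SEMA3 to SEMA7, the plexins of the A, C and D classes, both neuropilins, the Eph receptors and ephrins, the netrins with DCC and the UNC5 receptors, and the Slits and Robos. A gene also had to reach at least 10 read counts in 3 or more of the 18 libraries. Of 69 symbols in the table that carried such a name, 53 met the count rule, which is 0.209% of the 25369 genes listed. They were 19 semaphorins, 7 plexins and neuropilins, 5 netrins and netrin receptors, 7 ephrins, 9 Eph receptors and 6 Slits and Robos. The last genes inside the rule were EPHB3 (96 counts over all libraries) and SLIT1 (117 counts), each with 3 libraries at the minimum, and the first outside was EPHB6 (58 counts), with 2. EFNA2, NTN1, NTN4 and PLXNC1 reached the minimum in 1 library each.

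Both lines are labelled as Group 3 medulloblastoma, the subgroup marked by high MYC. D425 cells received hairpin 6 or hairpin 8 against EYA2, D458 cells received hairpin 7 or hairpin 8, and the control cells of each line carried a non-targeting hairpin. Each of the 6 groups held 3 libraries, which the series describes as independent biological replicates. All cells, controls included, carried a construct that also encodes the fluorescent protein zsGreen, were selected with puromycin (1 µg/mL for 48 h), sorted for the brightest 10% and left to recover for 24 h, per the labels' protocols. The groups therefore speak of transduced, sorted cultures of 1 line each. EYA2 encodes a transcriptional coactivator and phosphatase that works with homeobox partners of the sine oculis family.

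Guidance cues are secreted or membrane-bound proteins that attract or repel the growing tip of an axon, and the same cues steer migrating neurons and vessels. Semaphorins signal through plexins, with neuropilins as co-receptors for most of the secreted class. Netrins signal through DCC and UNC5 receptors, Slits through Robos, and ephrins through Eph receptors on the cell that they touch. In the developing cerebellum, where medulloblastoma arises, semaphorins and plexins are known from mice to guide the migration of granule cells.

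The libraries held 21260369 to 31552051 counts. EYA2 had a median of 10.7 CPM (counts scaled to the TMM-adjusted library size) with hairpin 6 and 12.7 CPM with hairpin 8, against 24.6 CPM in D425 controls, and 47.4 CPM with hairpin 7 and 19.3 CPM with hairpin 8, against 69.7 CPM in D458 controls. In D425 controls EYA2 was spread from 15.5 to 43.6 CPM. The highest D425 hairpin 8 library (17.5 CPM) overlapped these controls, and the highest hairpin 6 library (15.1 CPM) lay just below them. In D458 the highest libraries of hairpins 7 and 8 (51.8 and 23.5 CPM) were below the lowest control (67.5 CPM). The log2 change of EYA2 was -1.24 and -0.98 with D425 hairpins 6 and 8 and -1.79 with D458 hairpin 8, which passed the test. With D458 hairpin 7 it was -0.55, short of the threshold (adjusted p = 0.137), and passed with the replicate number as a block (adjusted p = 0.00692). Of 10 Group 3 markers, 9 in D425 and 8 in D458 reached 1 CPM in each group, led by MYC, while NPR3 stayed near 0. In D458, MAB21L2 was also below 1 CPM in each group. The summed level of the 10 was 4628 to 5295 CPM with hairpin 6 and 4363 to 5168 CPM with hairpin 8. D425 controls had 5541 to 6388 CPM. In D458 it was 5658 to 6550 CPM with hairpin 7 and 5341 to 6561 CPM with hairpin 8. D458 controls had 6364 to 6910 CPM. Mean MYC was 2662 and 2446 CPM with D425 hairpins 6 and 8, against 3580 CPM in controls. In D458 it was 3416 and 3391 CPM, against 4046 CPM. The summed level of 9 fibroblast and mesenchyme markers was 43.7 to 86.4 CPM with hairpin 6 and 52 to 96.8 CPM with hairpin 8, against 18.6 to 33.5 CPM in D425 controls. In D458 it was 34.3 to 55.7 CPM with hairpin 7 and 32.3 to 61.0 CPM with hairpin 8, against 6.89 to 8.44 CPM in controls. Of these markers 3 or 4 reached 1 CPM in each group, led by PDGFRB or COL1A1, POSTN and THY1 were at 0 in both control groups, and COL3A1 and PDGFRA were at 0 in D458 controls. The sum of 8 endothelial markers, of which 1 reached 1 CPM in each group, was 3.57 to 5.38 CPM with hairpin 6 and 4.28 to 6.82 CPM with hairpin 8, against 1.56 to 2.94 CPM in D425 controls, led by KDR. In D458 it was 2.73 to 2.96 CPM with hairpin 7 and 2.10 to 2.51 CPM with hairpin 8, against 1.73 to 2.39 CPM in controls, led by CLDN5. The sum of 9 astrocyte and oligodendrocyte markers, 2 of them at 1 CPM or more and led by SLC1A3, was 46.6 to 56.9 CPM with hairpin 6 and 34.8 to 48.1 CPM with hairpin 8, against 57.7 to 70.6 CPM in D425 controls. In D458 it was 109.8 to 126 CPM with hairpin 7 and 108 to 116 CPM with hairpin 8, against 109.6 to 134 CPM in controls. The part of these marker lists in the changes of guidance genes was not tested. In bulk RNA, fewer cells of a type and less RNA per cell cannot be told apart.

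With EYA2 hairpins, PLXNA2 rose in both lines, PLXND1 fell in D425 and rose in D458, and most other called guidance genes were called in 1 line. Calls were made with edgeR's quasi-likelihood test, at a p under 0.05 after Benjamini-Hochberg (BH) adjustment over all 14850 genes tested. Of the 53 genes, 52 passed the filter on low counts. SLIT1, a secreted repellent, did not, with at most 18 counts in a library. The count rule was met through hairpin libraries alone by DCC, EPHA4, EPHA5, EPHB3, SEMA5B and SLIT1, and through D425 libraries alone by DCC, EFNA1, EFNB3, EPHA3, EPHA5, EPHB1 and NRP1. The rule therefore favoured a higher level of these genes in those libraries, and their values along that contrast are a description. With D425 hairpin 6, 13 of 52 were called, 8 higher and 5 lower, beside 14.1% of all genes (7.31% higher and 6.84% lower). With D425 hairpin 8, 14 were called, 10 higher and 4 lower, beside 21.7% of all genes (11.6% higher and 10.1% lower). With D458 hairpin 7, 11 were called, 10 higher and 1 lower, beside 22.6% (11.5% and 11.1%). With D458 hairpin 8, 9 were called, 8 higher and 1 lower, beside 23.2% (12.1% and 11.1%). The members' share of 25% with D425 hairpin 6 was above the background, while 26.9%, 21.2% and 17.3% with the other 3 lay near it, and no test of these shares was made. Log2 changes are given ± their standard error. In each line the 2 hairpin comparisons used the same 3 control libraries. Both hairpins called 11 members in the same direction in D425, 7 higher and 4 lower, beside 12.4% of all genes (6.48% and 5.94%). The 7 higher include EPHA5, which met the count rule through D425 hairpin libraries alone. In D458 both called 9, 8 higher and 1 lower, beside 17.9% of all genes (9.28% and 8.64%). In all, 24 members were called in at least 1 hairpin comparison and 28 in none.

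**Figure D1:**
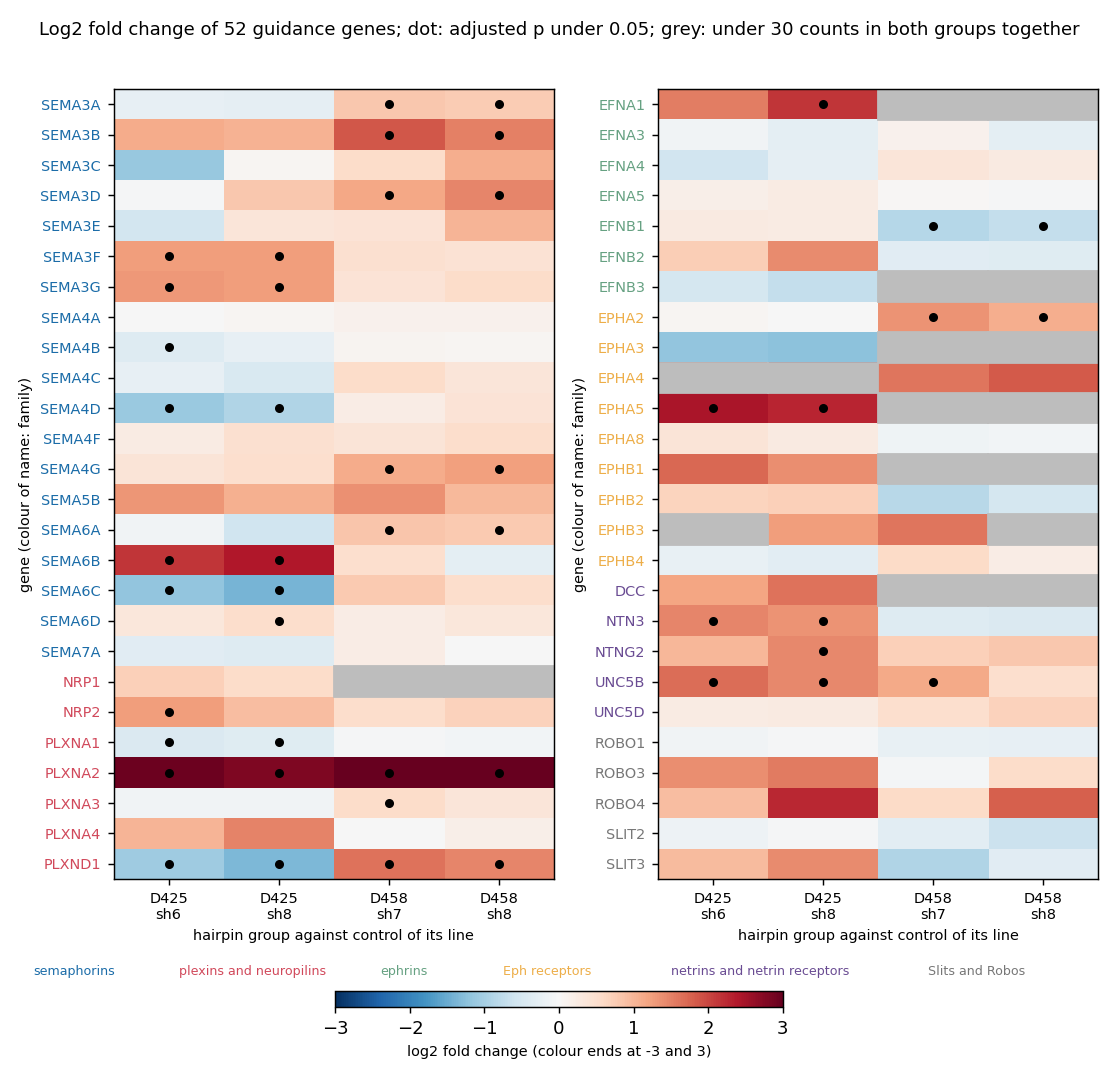
Log2 fold change of 52 guidance genes (rows, names coloured by family) with each hairpin against the control of its line (columns), n = 3 libraries per group, with a dot where the adjusted p was under 0.05 and grey where both groups together held fewer than 30 counts. PLXNA2 carries a dot in all 4 columns, and PLXND1 is blue with a dot in both D425 columns and red with a dot in both D458 columns.

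The median log2 change of the 52 genes was 0.31 and 0.49 with D425 hairpins 6 and 8, and 0.51 and 0.51 with D458 hairpins 7 and 8, beside 0.01, 0.02, 0.01 and 0.01 over all genes tested. Among the 20 members that averaged at least 10 CPM it was 0.12, 0.12, 0.45 and 0.39, beside -0.02, -0.03, -0.06 and -0.06 over all genes at that level. At that level the D425 medians were below those of all 52 members. The 52 include DCC, EPHA4, EPHA5, EPHB3 and SEMA5B, which met the count rule through hairpin libraries alone. The rule thus favoured a higher median over the 52, and none of these genes averaged 10 CPM.

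The counts of calls depended on single libraries. The D425 calls with each hairpin dropped most without 1 control. Without D425 control replicate 3, the members called were 8 with hairpin 6 and 9 with hairpin 8. Without D458 control replicate 1 or control replicate 2, 7 were called with hairpin 7, and without hairpin 7 replicate 1, 5. Without D458 hairpin 8 replicate 1, 4 were called with hairpin 8. Both D458 hairpins then called 5, 5, 5 and 4 members in the same direction, in that order. Same-numbered libraries of a line deviated together and were taken to pair the samples. With the replicate number as a block, 22 and 27 members were called in D425 and 16 and 18 in D458, and both hairpins called 20 in D425 and 13 in D458. The shares of all genes called with the block are not given here, so these counts have no background beside them. Beside a p obtained with the block, the log2 change and its standard error are those of the fit without it. The block added EFNA1, EFNB3, NRP2, NTNG2, PLXNA4, ROBO3, SEMA4B, SEMA6D and SLIT3 in D425 and NTNG2, PLXNA3, ROBO1, SEMA4F and SEMA6C in D458 to the members called with both hairpins, and took SEMA3D away. Replicate 1 of every group carries an earlier date in the labels than replicates 2 and 3. Among replicates 2 and 3 alone, 21 and 23 members were called in D425 and 11 and 7 in D458, in the order of the hairpins above. Without replicate 2 of every group 0, 3, 3 and 2 were called, and without replicate 3, 4, 5, 7 and 6. Replicate 1 alone leaves 1 library per group and no test. For the counts without a library or a replicate number, too, no share of all genes is given. A call said below to hold without any single library could still be lost without a replicate number.

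Among the secreted class 3 semaphorins, SEMA3F and SEMA3G rose in D425, and SEMA3A, SEMA3B and SEMA3D rose in D458. SEMA3F, a repellent read through neuropilin 2, had 256, 248 and 212 CPM with hairpin 6 and 260.1, 231 and 232 CPM with hairpin 8, against 144, 95.3 and 61.9 CPM in D425 controls. All 6 hairpin libraries stood above all 3 controls, although the controls themselves were spread. SEMA3F changed by 1.25 ± 0.20 (BH-adjusted p = 0.0009) on the log2 scale with hairpin 6 and 1.26 ± 0.20 (BH-adjusted p = 0.000539) with hairpin 8, a 2.38-fold and a 2.40-fold higher level. In D458, SEMA3F had 187.1, 144 and 169 CPM with hairpin 7 and 179.9, 144 and 155 CPM with hairpin 8, against 120.4, 120.2 and 116 CPM in D458 controls. There too no hairpin library overlapped the controls, but the smaller changes of 0.49 ± 0.20 (BH-adjusted p = 0.0868) and 0.43 ± 0.20 (BH-adjusted p = 0.134) did not pass. With the replicate block the change with hairpin 7 passed (BH-adjusted p = 0.0284) and that with hairpin 8 did not (BH-adjusted p = 0.0507).

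SEMA3G, another secreted semaphorin, had 25.8, 27.2 and 25.5 CPM with hairpin 6 and 25.8, 25.7 and 25.2 CPM with hairpin 8, against 15.6, 9.24 and 7.30 CPM in D425 controls. The hairpin libraries lay close together and clear of the controls. SEMA3G changed by 1.29 ± 0.21 (BH-adjusted p = 0.000864) on the log2 scale with hairpin 6 and 1.26 ± 0.21 (BH-adjusted p = 0.000629) with hairpin 8. In D458 the level was lower than in D425 in every group, at 3.88 ± 0.293 CPM with hairpin 7 and 4.26 ± 0.286 CPM with hairpin 8, against 2.91 ± 0.794 CPM in controls (SD, n = 3), and the changes of 0.41 ± 0.24 (BH-adjusted p = 0.219) and 0.55 ± 0.24 (BH-adjusted p = 0.104) did not pass. SEMA3F and SEMA3G kept their D425 calls without any 1 library.

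SEMA3A, the archetypal repellent of sensory axons, had 46.0, 46.4 and 32.1 CPM with hairpin 7 and 52.4, 37.3 and 30.5 CPM with hairpin 8, against 22.6, 23.9 and 24.2 CPM in D458 controls. Every hairpin library was above every control. SEMA3A changed by 0.82 ± 0.18 (BH-adjusted p = 0.0058) on the log2 scale with hairpin 7 and 0.77 ± 0.18 (BH-adjusted p = 0.00793) with hairpin 8, and both calls held without any 1 library. In D425 the level was higher in all groups, with 107, 118 and 113 CPM with hairpin 6 and 91.6, 132 and 112 CPM with hairpin 8, against 125, 152 and 127 CPM in D425 controls. There the changes of -0.26 ± 0.17 (BH-adjusted p = 0.366) and -0.27 ± 0.17 (BH-adjusted p = 0.296) did not pass.

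SEMA3B, whose gene lies near SEMA3F in a region of chromosome 3 often lost in cancers, had 5.43, 2.87 and 3.94 CPM with hairpin 7 and 4.62, 2.35 and 2.59 CPM with hairpin 8, against 0.799, 1.07 and 1.46 CPM in D458 controls. All hairpin libraries exceeded all controls, at low counts. SEMA3B changed by 1.87 ± 0.50 (BH-adjusted p = 0.0148) on the log2 scale with hairpin 7 and 1.52 ± 0.50 (BH-adjusted p = 0.0385) with hairpin 8. The first was lost without D458 control replicate 1 or hairpin 7 replicate 1, and the second without any control or without hairpin 8 replicate 1 (highest adjusted p = 0.0729 and 0.201). In D425, SEMA3B averaged 15.6 ± 7.94 CPM with hairpin 6 and 15 ± 7.18 CPM with hairpin 8, against 7.27 ± 2.73 CPM in controls (SD, n = 3), and did not pass (1.11 ± 0.41, BH-adjusted p = 0.0875, and 1.05 ± 0.41, BH-adjusted p = 0.0804). The table also lists the antisense gene SEMA3B-AS1, with 12 counts in all. The strand setting of the counting is not given in the sources used here, so reads of the pair cannot be told apart.

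SEMA3D had 2.47, 2.97 and 1.88 CPM with hairpin 7 and 3.95, 2.52 and 2.46 CPM with hairpin 8, against 0.444, 1.07 and 1.71 CPM in D458 controls. No hairpin library overlapped the controls, whose own values were widely spread. SEMA3D changed by 1.17 ± 0.40 (BH-adjusted p = 0.0439) on the log2 scale with hairpin 7 and 1.46 ± 0.39 (BH-adjusted p = 0.0148) with hairpin 8. With the replicate block the hairpin 7 change did not pass (BH-adjusted p = 0.0619). That call was also lost without control replicate 1 or 2 or hairpin 7 replicate 1 or 2, and the hairpin 8 call without control replicate 1 or hairpin 8 replicate 1 (highest adjusted p = 0.14 and 0.0764). SEMA3D lies next to SEMA3A on chromosome 7, and SEMA3A next to SEMA3E. SEMA3E, the ligand of plexin D1, was not called with any hairpin, and its D458 changes were 0.40 ± 0.40 (BH-adjusted p = 0.489) and 1.02 ± 0.39 (BH-adjusted p = 0.0666), of which the second passed with the block (BH-adjusted p = 0.0264).

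Of the membrane-bound semaphorins, SEMA6C and SEMA4D fell in D425, SEMA6B rose in D425, and SEMA4G and SEMA6A rose in D458. SEMA6C, a transmembrane class 6 semaphorin, had 13.1, 24.1 and 22.7 CPM with hairpin 6 and 11.7, 18.9 and 21.5 CPM with hairpin 8, against 29.5, 51.3 and 55.9 CPM in D425 controls. The hairpin and control libraries did not overlap, and replicate 1 was the lowest of each group. SEMA6C changed by -1.19 ± 0.28 (BH-adjusted p = 0.0104) on the log2 scale with hairpin 6, lost without D425 control replicate 3 or hairpin 6 replicate 1 (highest adjusted p = 0.0584), and -1.39 ± 0.28 (BH-adjusted p = 0.00302) with hairpin 8. In D458, SEMA6C had 54.1, 44.1 and 34.7 CPM with hairpin 7 and 48.0, 29.7 and 33.2 CPM with hairpin 8, against 25.9, 25 and 26.6 CPM in D458 controls. Here all hairpin libraries were above the controls, with changes of 0.78 ± 0.28 (BH-adjusted p = 0.0569) and 0.52 ± 0.28 (BH-adjusted p = 0.191) that did not pass, and that passed with the replicate block (BH-adjusted p = 0.000221 and BH-adjusted p = 0.00439).

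The 250 bases upstream of the annotated start of SEMA6C are shown because it was lower in D425 and not in D458 and because its promoter held a motif of the retinal and cerebellar factors OTX2 and CRX. The sequence is from RefSeq on GRCh38.p14, minus strand, chr1:151146632-151146881, with the motif GGATTA in capitals.
SEMA6C: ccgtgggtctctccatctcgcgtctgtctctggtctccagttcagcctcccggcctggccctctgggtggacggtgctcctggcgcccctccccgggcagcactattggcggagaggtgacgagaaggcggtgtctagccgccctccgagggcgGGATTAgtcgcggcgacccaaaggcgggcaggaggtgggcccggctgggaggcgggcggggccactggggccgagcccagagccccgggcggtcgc
GGATTA, searched on both strands, was present in this window in 5.62% of 35116 promoters and in 5 of the 44 members matched in that table, EPHA2, ROBO3, SEMA3D, SEMA5B and SEMA6C. The E-box CACGTG, bound by MYC with its partner MAX, was present in 6.34% of promoters and in 2 members, EPHA8 and SEMA4D. Of 2 motifs of the sine oculis homeobox family, the partners of EYA2, TCAGGTT was in 2.79% of promoters and in 0 of the 44, and TGATAC in 3.80% and in 1 member, DCC. No motif contains another. A match is a description of the letters and not of binding.

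SEMA4D, a transmembrane ligand of plexin B1, had 5.14, 5.43 and 6.68 CPM with hairpin 6 and 6.32, 5.82 and 7.86 CPM with hairpin 8, against 10.1, 12.2 and 15.1 CPM in D425 controls. Each hairpin library was below each control. SEMA4D changed by -1.12 ± 0.18 (BH-adjusted p = 0.000864) on the log2 scale with hairpin 6 and -0.90 ± 0.18 (BH-adjusted p = 0.00232) with hairpin 8, and no single library changed these calls. SEMA4D lies on chromosome 9, whose 352 genes averaging at least 8 CPM had a median log2 change of -0.38 with hairpin 6 and -0.38 with hairpin 8 in D425, against -0.01 and 0.00 with D458 hairpins 7 and 8. The fall of SEMA4D was larger than that median, and the part of the chromosome in it was not tested. In D458, SEMA4D averaged 7.58 ± 0.840 CPM with hairpin 7 and 8.62 ± 1.09 CPM with hairpin 8, against 6.47 ± 0.980 CPM in controls (SD, n = 3), and did not pass (0.23 ± 0.18, BH-adjusted p = 0.384, and 0.41 ± 0.18, BH-adjusted p = 0.111). With the replicate block the change with hairpin 8 passed (BH-adjusted p = 0.0105).

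SEMA6B, a class 6 semaphorin that binds plexin A4 in mice, had 13.5, 6.21 and 7.45 CPM with hairpin 6 and 12.1, 7.86 and 12.6 CPM with hairpin 8, against 4.02, 1.49 and 0.698 CPM in D425 controls. The hairpin libraries were above the controls, and control replicate 1 was the highest control. SEMA6B changed by 2.14 ± 0.66 (BH-adjusted p = 0.0431) on the log2 scale with hairpin 6 and 2.40 ± 0.67 (BH-adjusted p = 0.0189) with hairpin 8. Without D425 control replicate 1 these were 3.06 and 3.32, while without control replicate 2 or 3 neither passed. The hairpin 6 call was also lost without any 1 of its own libraries (highest adjusted p = 0.17 over these fits). In D458, SEMA6B changed by 0.51 ± 0.66 (BH-adjusted p = 0.609) and -0.28 ± 0.68 (BH-adjusted p = 0.791) and did not pass.

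SEMA4G, a class 4 semaphorin expressed in the developing mouse cerebellum, had 15.7, 10.3 and 11.8 CPM with hairpin 7 and 15.4, 13 and 12.9 CPM with hairpin 8, against 4.13, 6.64 and 6.84 CPM in D458 controls. The groups did not overlap, and the calls held without any single library. SEMA4G changed by 1.11 ± 0.21 (BH-adjusted p = 0.00216) on the log2 scale with hairpin 7 and 1.23 ± 0.21 (BH-adjusted p = 0.00104) with hairpin 8. In D425 the changes were smaller, 0.39 ± 0.20 (BH-adjusted p = 0.215) and 0.51 ± 0.20 (BH-adjusted p = 0.0724), and did not pass, except with the replicate block for hairpin 8 (BH-adjusted p = 0.0295).

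SEMA6A, which in mice acts through plexin A2 in granule cell migration, had 21.8, 17.3 and 14.3 CPM with hairpin 7 and 20.1, 17 and 15 CPM with hairpin 8, against 9.19, 10.2 and 10.9 CPM in D458 controls. All hairpin libraries were above all controls. SEMA6A changed by 0.82 ± 0.24 (BH-adjusted p = 0.022) on the log2 scale with hairpin 7, lost without control replicate 1 or 2 or hairpin 7 replicate 1, and 0.78 ± 0.24 (BH-adjusted p = 0.0263) with hairpin 8, lost without any 1 control or hairpin 8 replicate 1 (highest adjusted p = 0.114 and 0.103). In D425 its level was near 1 CPM, 0.966 ± 0.155 CPM with hairpin 6 and 0.680 ± 0.338 CPM with hairpin 8, against 1.04 ± 0.371 CPM in controls (SD, n = 3), and did not pass (-0.10 ± 0.31, BH-adjusted p = 0.888, and -0.61 ± 0.32, BH-adjusted p = 0.196).

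SEMA4B, a class 4 semaphorin, fell with D425 hairpin 6 (-0.39 ± 0.10, BH-adjusted p = 0.0189), a call lost without control replicate 3 or hairpin 6 replicate 1 or 2 (highest adjusted p = 0.0694), but missed the threshold with hairpin 8 (-0.24 ± 0.10, BH-adjusted p = 0.103) except with the block (BH-adjusted p = 0.0154). SEMA6D, a ligand of plexin A1 in chick and mouse, rose with D425 hairpin 8 (0.52 ± 0.14, BH-adjusted p = 0.0134), a call lost without control replicate 3 (adjusted p = 0.0856). It did not pass with hairpin 6 (0.35 ± 0.14, BH-adjusted p = 0.104) except with the block (BH-adjusted p = 0.0413). The other 7 semaphorins, SEMA3C, SEMA3E, SEMA4A, SEMA4C, SEMA4F, SEMA5B and SEMA7A, were not called with any hairpin. With the block SEMA4F passed with D425 hairpin 8 (0.47 ± 0.19, BH-adjusted p = 0.00406) and with both D458 hairpins (0.40 ± 0.20, BH-adjusted p = 0.02, and 0.53 ± 0.19, BH-adjusted p = 0.00354), and SEMA4C with D458 hairpin 7 (0.54 ± 0.35, BH-adjusted p = 0.029). The log2 changes of the 7 ran between -1.14 (SEMA3C) and 1.33 (SEMA5B) in D425 and between -0.02 (SEMA7A) and 1.37 (SEMA5B) in D458. The median over the 19 semaphorins was -0.02 with D425 hairpin 6, 0.35 with D425 hairpin 8, 0.51 with D458 hairpin 7 and 0.53 with D458 hairpin 8. In D458, 5 of the 19 were called higher and 0 lower with each hairpin. Of all genes, 11.5% were higher and 11.1% lower with hairpin 7, and 12.1% and 11.1% with hairpin 8. In D425, 3 were higher and 3 lower with hairpin 6, beside 7.31% and 6.84% of all genes. With D425 hairpin 8, 4 were higher and 2 lower, beside 11.6% and 10.1%. No test of the family was made.

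**Figure D2:**
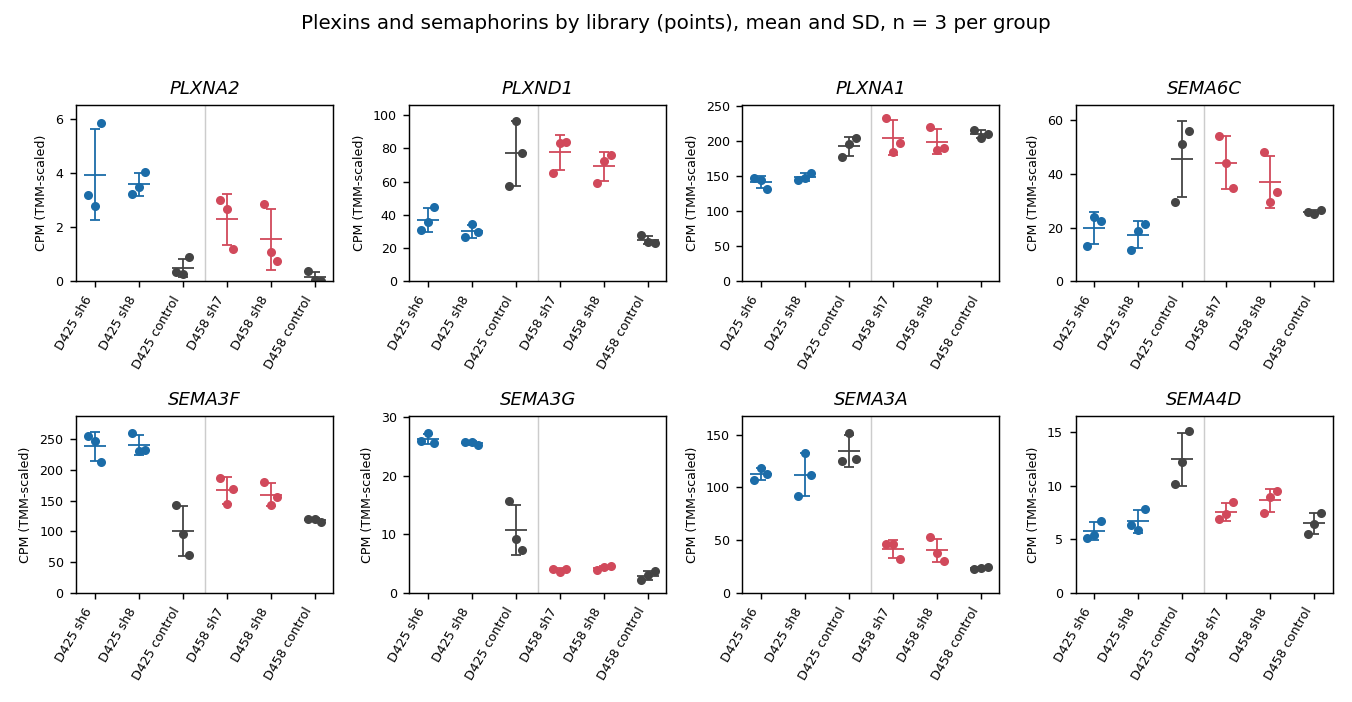
TMM-scaled CPM of 3 plexins and 5 semaphorins in each library (points, replicates 1 to 3 from left to right within a group), with the mean and SD over n = 3 libraries. PLXND1 has its lowest D425 values and its highest D458 values in the hairpin groups, and SEMA3F and SEMA3G have all D425 hairpin points above the D425 controls.

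Among the semaphorin receptors, PLXNA2 rose with all 4 hairpins, PLXND1 moved in opposite directions in the lines, and PLXNA1 fell in D425. PLXNA2, the plexin that binds class 6 semaphorins in mice, had 3.20, 2.80 and 5.88 CPM with hairpin 6 and 3.23, 3.51 and 4.05 CPM with hairpin 8, against 0.366, 0.261 and 0.889 CPM in D425 controls. In D458 it had 3.00, 2.68 and 1.21 CPM with hairpin 7 and 2.86, 1.09 and 0.764 CPM with hairpin 8, against 0.40, 0.0489 and 0 CPM in D458 controls. In both lines every hairpin library was above every control. Of the 14 libraries that met the count rule for PLXNA2, 12 were hairpin libraries and 2 were D425 controls, so that within D458 the rule was met through hairpin libraries alone. These are low levels: the 3 libraries of a group held 329 counts with hairpin 6 and 312 with hairpin 8, against 45 in D425 controls, and 156 with hairpin 7 and 119 with hairpin 8, against 10 in D458 controls. PLXNA2 changed by 2.94 ± 0.63 (BH-adjusted p = 0.00548) on the log2 scale and 2.79 ± 0.63 (BH-adjusted p = 0.00532) with D425 hairpins 6 and 8, a 7.66-fold and a 6.94-fold higher level. In D458 it changed by 3.90 ± 0.78 (BH-adjusted p = 0.00329) and 3.36 ± 0.79 (BH-adjusted p = 0.00798) with hairpins 7 and 8, a 14.9-fold and a 10.3-fold higher level. Of the 10 counts in D458 controls 9 were in replicate 1, and without that library the changes were 6.41 and 5.87. Without D458 hairpin 8 replicate 1 the hairpin 8 change was 2.61 and did not pass (adjusted p = 0.0507). Without D425 control replicate 3 the D425 changes were 3.64 and 3.50. Without replicate 2 of every group, none of the 4 PLXNA2 changes passed. The adjusted p was then 0.147 and 0.12 with D425 hairpins 6 and 8, and 0.0838 and 0.0904 with D458 hairpins 7 and 8.

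PLXND1, the plexin that binds SEMA3E without a neuropilin, had 30.7, 35.4 and 44.6 CPM with hairpin 6 and 26.5, 34.4 and 29.5 CPM with hairpin 8, against 57.2, 96.2 and 77.4 CPM in D425 controls. Every D425 hairpin library was below every control. In D458, PLXND1 had 65.4, 83.3 and 84.0 CPM with hairpin 7 and 59.2, 72.6 and 75.9 CPM with hairpin 8, against 28, 24.0 and 23.4 CPM in D458 controls. There every hairpin library was above every control. PLXND1 changed by -1.06 ± 0.18 (BH-adjusted p = 0.00113) on the log2 scale and -1.35 ± 0.18 (BH-adjusted p = 0.000145) with D425 hairpins 6 and 8, a 2.08-fold and a 2.55-fold lower level. It was 1.63 ± 0.18 (BH-adjusted p = 4.8e-05) and 1.46 ± 0.18 (BH-adjusted p = 0.000136) with D458 hairpins 7 and 8, a 3.09-fold and a 2.76-fold higher level. All 4 calls held without any single library.

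The promoters of both plexins are shown, PLXNA2 as the member called with every hairpin and PLXND1 as the one called in opposite directions. Each is the 250 bases upstream of the RefSeq start on GRCh38.p14, on the minus strand of its chromosome, at chr1:208244385-208244634 for PLXNA2 and chr3:129606677-129606926 for PLXND1. None of the 4 motifs above was found in either, so no letters are in capitals.
PLXNA2: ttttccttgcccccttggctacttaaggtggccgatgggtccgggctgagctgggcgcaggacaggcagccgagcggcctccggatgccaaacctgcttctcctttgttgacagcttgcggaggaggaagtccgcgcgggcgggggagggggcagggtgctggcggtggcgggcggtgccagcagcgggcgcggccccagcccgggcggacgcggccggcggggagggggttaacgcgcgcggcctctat
PLXND1: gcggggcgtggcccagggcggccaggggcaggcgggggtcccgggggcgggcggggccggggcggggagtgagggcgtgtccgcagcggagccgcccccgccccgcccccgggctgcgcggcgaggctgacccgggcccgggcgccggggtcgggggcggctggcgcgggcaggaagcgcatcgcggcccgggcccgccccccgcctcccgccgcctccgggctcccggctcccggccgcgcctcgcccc
The G and C content was 72.4% in the PLXNA2 window, 88.8% in the PLXND1 window and 73.2% in that of SEMA6C.

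PLXNA1, which pairs with neuropilins in receptors for class 3 semaphorins, had 148, 144 and 132 CPM with hairpin 6 and 145, 148 and 155 CPM with hairpin 8, against 178, 196 and 204 CPM in D425 controls. The hairpin libraries were all below the controls. The fall was small, -0.44 ± 0.09 (BH-adjusted p = 0.00327) on the log2 scale with hairpin 6 and -0.37 ± 0.09 (BH-adjusted p = 0.0075) with hairpin 8, and held without any single library. In D458 the level was 205 ± 24.8 CPM with hairpin 7 and 199 ± 17.8 CPM with hairpin 8, against 210.2 ± 5.92 CPM in controls (SD, n = 3), and the changes of -0.04 ± 0.09 (BH-adjusted p = 0.799) and -0.08 ± 0.09 (BH-adjusted p = 0.554) did not pass. PLXNA1 and PLXND1 both lie on chromosome 3, whose 524 genes averaging at least 8 CPM had medians of -0.19 and -0.18 with D425 hairpins 6 and 8, and -0.09 and -0.08 with D458 hairpins 7 and 8. SEMA3F and SEMA3G, which rose in D425, lie on the same chromosome.

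Neuropilin 2, the co-receptor for SEMA3F, rose with D425 hairpin 6. NRP2 had 17.9, 22.2 and 22.7 CPM with hairpin 6 and 12.8, 18.8 and 18.2 CPM with hairpin 8, against 11, 10.2 and 5.24 CPM in D425 controls. All hairpin libraries were above the controls, and the changes were 1.25 ± 0.40 (BH-adjusted p = 0.0461) with hairpin 6 and 0.91 ± 0.39 (BH-adjusted p = 0.11) with hairpin 8, of which the second did not pass except with the replicate block (BH-adjusted p = 0.0265). The hairpin 6 call was lost without control replicate 2 or 3 or any 1 of the hairpin 6 libraries (highest adjusted p = 0.20). PLXNA3, which serves SEMA3F with neuropilin 2, rose with D458 hairpin 7 (0.55 ± 0.15, BH-adjusted p = 0.0192), a call lost without control replicate 2 or 3 or hairpin 7 replicate 1 (highest adjusted p = 0.0964). It did not pass with hairpin 8 (0.36 ± 0.15, BH-adjusted p = 0.102), except with the block (BH-adjusted p = 0.00263). PLXNA4 and NRP1 were not called with any hairpin. PLXNA4, which binds SEMA6A and SEMA6B in mice, had log2 changes of 1.03 ± 0.55 (BH-adjusted p = 0.243) and 1.48 ± 0.53 (BH-adjusted p = 0.057) in D425, which passed with the block (BH-adjusted p = 0.0478 and BH-adjusted p = 0.00441). NRP1 held 1 count in the D458 controls together, and no fold is given for it there.

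Of the netrin genes, NTN3 and UNC5B rose in D425. NTN3, a secreted netrin, had 26.1, 18.5 and 19.6 CPM with hairpin 6 and 22.7, 17.4 and 18.5 CPM with hairpin 8, against 14.4, 5.67 and 3.24 CPM in D425 controls. The hairpin libraries were above the controls, of which replicate 1 was the highest. NTN3 changed by 1.46 ± 0.35 (BH-adjusted p = 0.011) on the log2 scale with hairpin 6 and 1.34 ± 0.35 (BH-adjusted p = 0.0132) with hairpin 8. Without D425 control replicate 1 the changes were 2.27 and 2.14, while without control replicate 2 neither passed, nor the hairpin 8 change without hairpin 8 replicate 1 (highest adjusted p = 0.0582 and 0.0614). In D458, NTN3 had 24.7, 20.2 and 21.5 CPM with hairpin 7 and 23, 20.8 and 20.5 CPM with hairpin 8, against 23.2, 32.6 and 30.9 CPM in D458 controls. The D458 changes of -0.38 ± 0.34 (BH-adjusted p = 0.425) and -0.43 ± 0.34 (BH-adjusted p = 0.373) did not pass.

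UNC5B, a repulsive netrin receptor and dependence receptor, had 32.2, 29.5 and 49.2 CPM with hairpin 6 and 33.2, 32.6 and 27.6 CPM with hairpin 8, against 19.7, 10.1 and 4.92 CPM in D425 controls. The groups did not overlap. UNC5B changed by 1.68 ± 0.36 (BH-adjusted p = 0.00575) on the log2 scale with hairpin 6 and 1.43 ± 0.36 (BH-adjusted p = 0.0105) with hairpin 8. Both held without any single library and were 2.31 and 2.06 without D425 control replicate 1. In D458, UNC5B had 19.5, 26.3 and 18.9 CPM with hairpin 7 and 16.2, 13.5 and 11.7 CPM with hairpin 8, against 13.1, 8.89 and 7.30 CPM in D458 controls. It rose with hairpin 7 (1.14 ± 0.36, BH-adjusted p = 0.0359), a call lost without control replicate 2 or 3 or hairpin 7 replicate 1 or 2 (highest adjusted p = 0.12), but missed the threshold with hairpin 8 (0.50 ± 0.37, BH-adjusted p = 0.34).

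NTNG2, a membrane-anchored netrin G that does not bind DCC, rose with D425 hairpin 8 (1.43 ± 0.37, BH-adjusted p = 0.0113), a call lost without D425 control replicate 3 (adjusted p = 0.068). It had changes of 0.99 ± 0.37 (BH-adjusted p = 0.0873) with hairpin 6, 0.71 ± 0.34 (BH-adjusted p = 0.136) with D458 hairpin 7 and 0.81 ± 0.34 (BH-adjusted p = 0.0918) with D458 hairpin 8 that did not pass. With the replicate block all 4 passed. NTNG2 lies on chromosome 9, where the D425 median was below 0. DCC, the attractive netrin receptor, was not called, with 28 counts with hairpin 6 and 41 counts with hairpin 8, against 13 counts in D425 controls, and 0 counts with hairpin 7 and 1 count with hairpin 8, against 0 counts in D458 controls. Its D425 change with hairpin 8 was 1.63 ± 0.62 (BH-adjusted p = 0.0801), and passed with the block (BH-adjusted p = 0.041). DCC met the count rule through D425 hairpin libraries alone, so these values and tests are a description. UNC5D was not called either, at 13.1 ± 3.39 CPM with hairpin 6 and 13.3 ± 5.14 CPM with hairpin 8, against 11 ± 3.01 CPM in D425 controls (SD, n = 3).

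**Figure D3:**
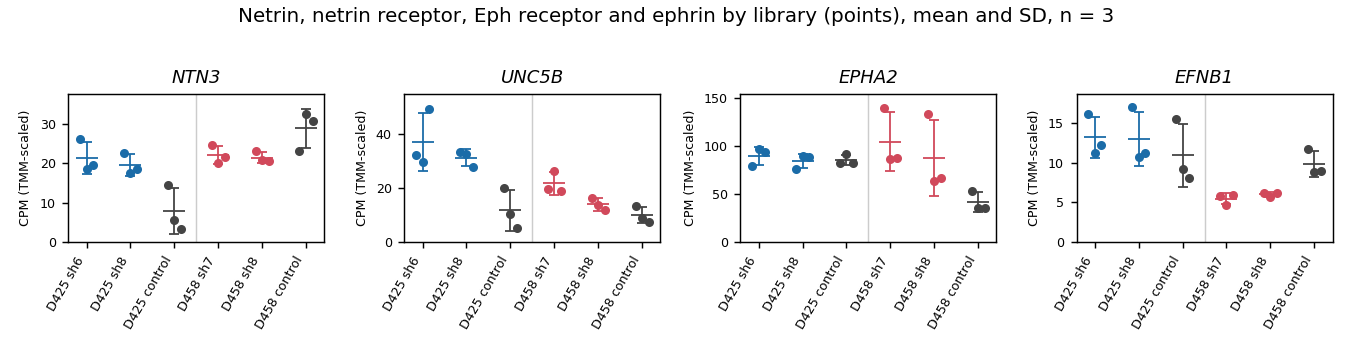
TMM-scaled CPM of NTN3, UNC5B, EPHA2 and EFNB1 in each library (points, replicates 1 to 3 from left to right within a group), with the mean and SD over n = 3 libraries. NTN3 and UNC5B have all D425 hairpin points above the D425 controls, while EPHA2 is higher and EFNB1 lower than control in all 6 D458 hairpin libraries.

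In the ephrin and Eph families, EPHA2 rose and EFNB1 fell in D458. EPHA5 was higher with the D425 hairpins, the only libraries through which it met the count rule. EPHA2, a receptor of A-type ephrins that is often high in tumours, had 140.2, 86.2 and 87.9 CPM with hairpin 7 and 134, 63.3 and 66.8 CPM with hairpin 8, against 53.2, 35.8 and 35.5 CPM in D458 controls. Each hairpin library was above each control, and replicate 1 was the highest of every group. EPHA2 changed by 1.34 ± 0.26 (BH-adjusted p = 0.00274) on the log2 scale with hairpin 7 and 1.08 ± 0.26 (BH-adjusted p = 0.0084) with hairpin 8, and held without any single library. In D425 it was 89.9 ± 9.63 CPM with hairpin 6 and 84.7 ± 7.35 CPM with hairpin 8, against 85.7 ± 5.24 CPM in controls (SD, n = 3), with changes of 0.07 ± 0.25 (95% interval -0.46 to 0.60) and -0.02 ± 0.25 (-0.55 to 0.52).

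EFNB1, a transmembrane ephrin, had 5.80, 4.6 and 5.96 CPM with hairpin 7 and 6.2, 5.65 and 6.16 CPM with hairpin 8, against 11.7, 8.84 and 8.93 CPM in D458 controls. The hairpin libraries were all below the controls. EFNB1 changed by -0.85 ± 0.24 (BH-adjusted p = 0.0206) on the log2 scale with hairpin 7 and -0.71 ± 0.24 (BH-adjusted p = 0.0423) with hairpin 8. The first was lost without D458 control replicate 1 or hairpin 7 replicate 1 or 2 (highest adjusted p = 0.0906), and the second without any 1 of its 6 libraries (highest adjusted p = 0.165), while both passed with the replicate block (BH-adjusted p = 0.000204 and BH-adjusted p = 0.00071). In D425 the changes were 0.27 ± 0.23 (BH-adjusted p = 0.487) and 0.25 ± 0.23 (BH-adjusted p = 0.469).

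EPHA5, a receptor known from the mapping of visual axons, was low in D425, with 0.752, 0.466 and 0.768 CPM with hairpin 6 and 1.06, 0.439 and 0.272 CPM with hairpin 8, against 0.0731, 0.186 and 0.0952 CPM in D425 controls. Each hairpin library was above each control, on sums of 54 counts with hairpin 6 and 52 counts with hairpin 8, against 10 counts in controls. The 5 libraries that brought EPHA5 into the rule were all D425 hairpin libraries, so this order and the tests that follow are a description. EPHA5 changed by 2.45 ± 0.62 (BH-adjusted p = 0.0162) on the log2 scale with hairpin 6, lost without D425 control replicate 3 or hairpin 6 replicate 3, and 2.29 ± 0.62 (BH-adjusted p = 0.0171) with hairpin 8, lost without D425 control replicate 3 or hairpin 8 replicate 1, where it was 1.56 (highest adjusted p = 0.081 and 0.11). In D458 it held 5 counts with hairpin 7 and 1 count with hairpin 8, against 0 counts in controls, and no fold is given.

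EFNA1, a ligand of EPHA2, rose with D425 hairpin 8 (2.15 ± 0.66, BH-adjusted p = 0.0286) but missed the threshold with hairpin 6 (1.54 ± 0.67, BH-adjusted p = 0.144). EFNA1 had 1.34, 0.699 and 1.07 CPM with hairpin 6 and 3.29, 0.732 and 0.715 CPM with hairpin 8, against 0.439, 0.410 and 0.222 CPM in D425 controls. Hairpin 8 replicate 1 stood above all others, and without it the change was 1.02 and did not pass (adjusted p = 0.287), nor did it without D425 control replicate 2 or 3. With the block both changes passed (BH-adjusted p = 0.0387 and BH-adjusted p = 0.00789). EFNA5, the ephrin with the most counts, was not called with any hairpin, and passed with the block with D425 hairpin 8 (0.26 ± 0.14, BH-adjusted p = 0.0325). It had 67.0 ± 5.65 CPM with hairpin 6 and 71.3 ± 13.1 CPM with hairpin 8, against 59.7 ± 8.66 CPM in D425 controls, and 22.5 ± 2.71 CPM with hairpin 7 and 21.6 ± 2.87 CPM with hairpin 8, against 22 ± 0.980 CPM in D458 controls (SD, n = 3). The 5 ephrins with no call as reported had log2 changes between -0.71 (EFNB3) and 1.42 (EFNB2) in D425, and between -0.37 (EFNB2) and 0.37 (EFNA4) in D458 where the counts reached 30. With the block EFNA4 passed with D425 hairpin 6 (-0.56 ± 0.20, BH-adjusted p = 0.0274), EFNB2 with D425 hairpin 8 (1.42 ± 0.57, BH-adjusted p = 0.0113) and EFNB3 with both D425 hairpins (-0.52 ± 0.28, BH-adjusted p = 0.0466, and -0.71 ± 0.28, BH-adjusted p = 0.00807). The other 7 Eph receptors were not called as reported, and where counts reached 30 their changes lay between -1.22 (EPHA3) and 1.72 (EPHB1) in D425 and between -0.84 (EPHB2) and 1.84 (EPHA4) in D458. With the block EPHA8 passed with D425 hairpin 6 (0.40 ± 0.17, BH-adjusted p = 0.0141). EPHA4 met the count rule through hairpin libraries alone, so its values and tests here are a description. It passed with the block with D425 hairpin 8 (BH-adjusted p = 0.026), on 20 counts, 18 of them in replicate 1, against 1 count in controls. It also passed with the block with D458 hairpin 8 (1.84 ± 0.93, BH-adjusted p = 0.0397). EPHB1, a receptor of B-type ephrins, had 3.76, 3.88 and 5.24 CPM with hairpin 6 and 3.39, 3.77 and 3.13 CPM with hairpin 8, against 3.69, 0.149 and 0.0952 CPM in D425 controls. Control replicate 1 thus stood with the hairpin libraries, and the changes of 1.72 ± 0.78 (BH-adjusted p = 0.161) and 1.39 ± 0.77 (BH-adjusted p = 0.215) did not pass.

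None of the 5 Slits and Robos tested was called with any hairpin as reported, and 4 of them passed with the replicate block in at least 1 comparison. ROBO1, a Slit receptor and the member of the family with the most counts, had 120.5, 141 and 136 CPM with hairpin 7 and 110.2, 147 and 133 CPM with hairpin 8, against 149.7, 162 and 153 CPM in D458 controls. The D458 hairpin libraries were below the controls, with changes of -0.23 ± 0.11 (BH-adjusted p = 0.155) and -0.25 ± 0.11 (BH-adjusted p = 0.119) that did not pass, and that passed with the replicate block (BH-adjusted p = 0.0106 and BH-adjusted p = 0.00528). In D425 the ROBO1 changes were -0.10 ± 0.11 (95% interval -0.34 to 0.14) and -0.03 ± 0.11 (-0.28 to 0.21). SLIT2, a secreted repellent, averaged 26.4 ± 3.17 CPM with hairpin 6 and 28.3 ± 7.66 CPM with hairpin 8, against 29.1 ± 8.25 CPM in D425 controls (SD, n = 3), with changes of -0.14 ± 0.25 (95% interval -0.68 to 0.39) and -0.04 ± 0.25 (-0.57 to 0.49). ROBO3, a Robo of commissural axons, and SLIT3 had D425 changes that did not pass, and that passed with the replicate block. For ROBO3 they were 1.39 ± 0.65 (BH-adjusted p = 0.00357 with the block) and 1.56 ± 0.64 (BH-adjusted p = 0.000932), and for SLIT3 0.96 ± 0.77 (BH-adjusted p = 0.0389) and 1.42 ± 0.77 (BH-adjusted p = 0.00528). ROBO3 and ROBO4 are neighbours on chromosome 11, and ROBO4, a Robo of endothelial cells with 13 to 122 counts in a group, had changes of 0.92 ± 1.07 (BH-adjusted p = 0.628) and 2.26 ± 1.01 (BH-adjusted p = 0.123) in D425 and 0.58 ± 1.27 (BH-adjusted p = 0.77) and 1.80 ± 1.15 (BH-adjusted p = 0.271) in D458. With the block ROBO4 passed with hairpin 8 in D425 (BH-adjusted p = 0.00261) and in D458 (BH-adjusted p = 0.0433).

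Genes that work with these cues were counted as lists, against the same shares of all genes as above. Of 25 tested receptor partners and adhesion co-receptors, 4 rose and 1 fell with D425 hairpin 6, 5 rose and 1 fell with D425 hairpin 8, 6 rose and 3 fell with D458 hairpin 7, and 5 rose and 2 fell with D458 hairpin 8, with medians of 0.53, 0.39, 0.75 and 0.62. GPC1, a proteoglycan that binds Slits, rose in D425 (2.74 ± 0.56, BH-adjusted p = 0.00411, and 2.14 ± 0.57, BH-adjusted p = 0.0139), at 2.52 ± 1.47 CPM with hairpin 6 and 1.67 ± 0.865 CPM with hairpin 8, against 0.378 ± 0.276 CPM in controls (SD, n = 3). The adhesion molecule CNTN1 rose with hairpin 8 in D425 (0.87 ± 0.18, BH-adjusted p = 0.0031) and in D458 (0.59 ± 0.18, BH-adjusted p = 0.0272). NEO1, a netrin receptor related to DCC, fell in D458 (-0.41 ± 0.12, BH-adjusted p = 0.0208, and -0.57 ± 0.12, BH-adjusted p = 0.00329), as did MET, a kinase that pairs with B plexins, with hairpin 7 (-0.58 ± 0.13, BH-adjusted p = 0.00536).

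Among 19 cytoplasmic effectors of semaphorins and plexins, 1 rose and 1 fell with each D425 hairpin, 1 rose and 3 fell with D458 hairpin 7, and 0 rose and 3 fell with D458 hairpin 8, with medians of -0.09, -0.02, -0.00 and 0.16. MICAL3, of a family of redox enzymes that act below plexins, had 83.8, 82.9 and 75.9 CPM with hairpin 7 and 85.9, 88.0 and 88.0 CPM with hairpin 8, against 125, 150.4 and 147 CPM in D458 controls. The hairpin and control libraries did not overlap, with changes of -0.80 ± 0.08 (BH-adjusted p = 9.8e-06) and -0.69 ± 0.08 (BH-adjusted p = 3.9e-05). FARP1, a FERM-domain exchange factor, fell in D458 (-1.77 ± 0.31, BH-adjusted p = 0.00146, and -1.56 ± 0.30, BH-adjusted p = 0.00247), as did DPYSL2, the collapsin response mediator first tied to SEMA3A (-0.43 ± 0.08, BH-adjusted p = 0.00259, and -0.36 ± 0.08, BH-adjusted p = 0.00663). Its relative DPYSL3 fell in D425 (-0.53 ± 0.12, BH-adjusted p = 0.00905, and -0.39 ± 0.12, BH-adjusted p = 0.0347).

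Of 37 effectors of Slits, netrins and ephrins, 3 rose and 4 fell with each D425 hairpin, 9 rose and 2 fell with D458 hairpin 7, and 10 rose and 2 fell with D458 hairpin 8, with medians of 0.07, 0.05, 0.19 and 0.27. ABL1, a kinase below Robos, fell in D425 (-0.64 ± 0.09, BH-adjusted p = 0.000441, and -0.62 ± 0.09, BH-adjusted p = 0.000321), as did VAV2, an exchange factor used by Eph receptors (-0.76 ± 0.12, BH-adjusted p = 0.000889, and -0.85 ± 0.12, BH-adjusted p = 0.000253). Both lie on chromosome 9, like SEMA4D. ARHGAP39, whose fly relative binds Robo, also fell in D425 (-0.61 ± 0.09, BH-adjusted p = 0.000573, and -0.69 ± 0.09, BH-adjusted p = 0.000143). NGEF, the Eph-bound exchange factor ephexin, rose in D458 (2.21 ± 0.32, BH-adjusted p = 0.000526, and 1.92 ± 0.32, BH-adjusted p = 0.00128), at 11 ± 1.39 CPM with hairpin 7 and 9.01 ± 0.246 CPM with hairpin 8, against 2.37 ± 1.10 CPM in controls (SD, n = 3).

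The hairpins of a line were compared with each other directly. With D425 hairpin 8 against hairpin 6, 0 members and 0 genes were called (0.00% of all genes), and with D458 hairpin 8 against hairpin 7 likewise 0 and 0 (0.00%). At an unadjusted p under 0.05 there were 2 members and 519 genes (3.49%) in D425 and 0 members and 274 genes (1.85%) in D458, and DESeq2 called 0 members in either. A call with 1 hairpin of a line and not with the other therefore does not show that the hairpins differ. Nor do 0 calls show that they act alike. EYA2 itself was not called between the D458 hairpins, at 45.1 to 51.8 CPM with hairpin 7 and 18.2 to 23.5 CPM with hairpin 8.

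Hairpin 8 was used in both lines, so its effect could be compared between them. With it EYA2 changed by -0.98 on the log2 scale in D425 and -1.79 in D458. A difference between the lines therefore cannot be told apart from a difference in knockdown. For 6 of 52 members the log2 change in D458 minus that in D425 passed the test, 5 above 0 and 1 below, beside 11.8% of all genes (6.19% and 5.65%). PLXND1 had the largest of these differences, 2.82 ± 0.26 (BH-adjusted p = 1.1e-05), and was the only member called in opposite directions in the lines. SEMA6C (1.91 ± 0.40, BH-adjusted p = 0.00689) and SEMA4D (1.32 ± 0.26, BH-adjusted p = 0.00423) fell in D425 and had positive changes in D458 that did not pass alone. SEMA3A (1.03 ± 0.25, BH-adjusted p = 0.0157) and SEMA6A (1.39 ± 0.40, BH-adjusted p = 0.0341) rose in D458 and had negative changes in D425 that did not pass. NTN3 (-1.76 ± 0.48, BH-adjusted p = 0.0285) rose in D425 and had a negative change in D458 that did not pass. PLXND1, SEMA3A, SEMA4D and SEMA6C kept the difference without any single library, while SEMA6A lost it without D425 control replicate 2, D425 hairpin 8 replicate 1 or 2, D458 control replicate 1 or 2 or D458 hairpin 8 replicate 1 (highest adjusted p = 0.12). NTN3 lost it without D425 control replicate 2, D425 hairpin 8 replicate 1, D458 control replicate 2 or 3 or any 1 D458 hairpin 8 library (highest adjusted p = 0.0767), and was -2.57 without D425 control replicate 1. With a replicate number left out of every group, only PLXND1 kept the difference each time. SEMA3A lost it without replicate 1, 2 or 3 (highest adjusted p = 0.149). SEMA4D and SEMA6C lost it without replicate 2 or 3 (highest adjusted p = 0.173 and 0.143). The count of members whose difference passed was 15 without D425 control replicate 1, 6 above 0 and 9 below, and 12 without replicate 1 of every group, 4 above and 8 below. With the replicate block it was also 15, 9 above 0 and 6 below. EPHA2 was among those added (1.10 ± 0.36, BH-adjusted p = 0.0569, and BH-adjusted p = 1.9e-05 with the block). No share of all genes is given for these fits.

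**Figure D4:**
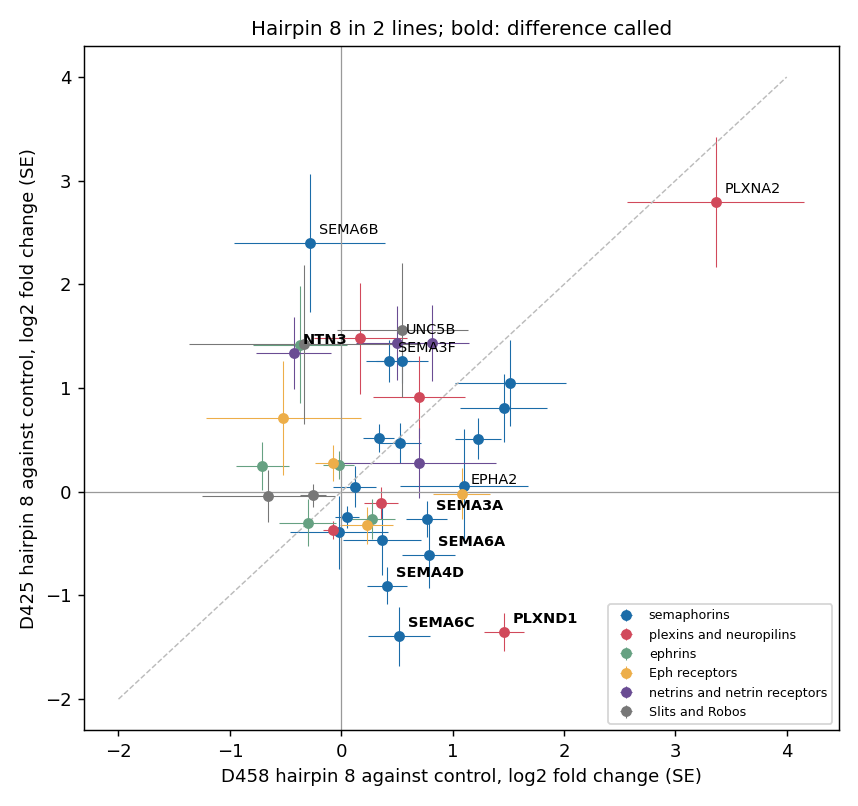
Log2 fold change with hairpin 8 against control in D458 (x axis) and in D425 (y axis) for 40 members averaging at least 1 CPM and holding at least 30 counts, with standard errors (n = 3 libraries per group) and a dashed line of equal change. Bold names are the members whose difference between the lines passed the test, with PLXND1 farthest below the line of equal change and NTN3 above it.

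The control cells of the lines differed in most members, as they did in most genes tested, before any EYA2 hairpin. In D458 controls against D425 controls 37 of 52 were called, 8 higher and 29 lower, beside 62.8% of all genes, of which 31.4% were higher and 31.4% lower. The median was -1.03 over the 52 members and 0.01 over all genes. The 52 include DCC, EFNA1, EFNB3, EPHA3, EPHA5, EPHB1 and NRP1, which met the count rule through D425 libraries alone. The rule favoured low D458 levels of these, so their part in the counts and the median is a description. Among the 20 members averaging at least 10 CPM, a level that none of these reached, the median was -0.93, beside 0.03 over all genes at that level. EFNB2, a transmembrane ephrin of arterial cells and neurons, had 4.93, 6.35 and 5.80 CPM in D458 controls, against 0.585, 0.261 and 0.0635 CPM in D425 controls, a log2 difference of 4.24 ± 0.53 (BH-adjusted p = 3.1e-06). Its main receptor EPHB4 had 2.00, 3.52 and 3.67 CPM in D458 controls, against 94.5, 95.5 and 99.1 CPM in D425 controls, a difference of -4.97 ± 0.22 (BH-adjusted p = 1.9e-11). EPHB4 was chosen after its values were seen. For both genes the control libraries of the lines did not overlap.

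Also higher in D458 controls were PLXNA4 (3.39 ± 0.51, BH-adjusted p = 2.1e-05), SEMA6A (3.28 ± 0.28, BH-adjusted p = 3.4e-08), the Eph receptor EPHA8 (2.43 ± 0.17, BH-adjusted p = 4.3e-09), NTN3 (1.90 ± 0.35, BH-adjusted p = 0.000212) and NTNG2 (1.75 ± 0.37, BH-adjusted p = 0.000569). Without D425 control replicate 1 the difference of NTN3 was 2.71. SLIT2 had 0.222, 0.586 and 0.375 CPM in D458 controls, against 21.8, 38.0 and 27.5 CPM in D425 controls, a difference of -6.21 ± 0.38 (BH-adjusted p = 6.6e-10). UNC5D, a netrin receptor, had 0.311, 0 and 0.292 CPM in D458 controls, against 10.1, 14.4 and 8.54 CPM in D425 controls, a difference of -5.69 ± 0.51 (BH-adjusted p = 6.3e-08). In D458 controls SLIT2 held 26 counts and UNC5D 14 counts over the 3 libraries.

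Some members were at or near 0 in D458. EFNB3 held 1 count in the 3 D458 control libraries, against 1116 counts in D425 controls, an 872-fold lower level with a counting interval of 156 to 34483. NRP1 held 1 count in D458 controls, against 71 counts in D425 controls, a 55.5-fold lower level (9.64 to 2222). EPHA3 held 0 counts in D458 controls, against 78 counts in D425 controls, and was at least 6.81-fold lower with a floor of 3 counts per library. DCC held 0 counts in D458 controls, against 13 counts in D425 controls, at least 1.08-fold lower by the same floor. These 4 genes met the count rule through D425 libraries alone, so a low D458 level of them was favoured by the rule and is given as a description. Such intervals and floors cover counting error only.

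**Figure D5:**
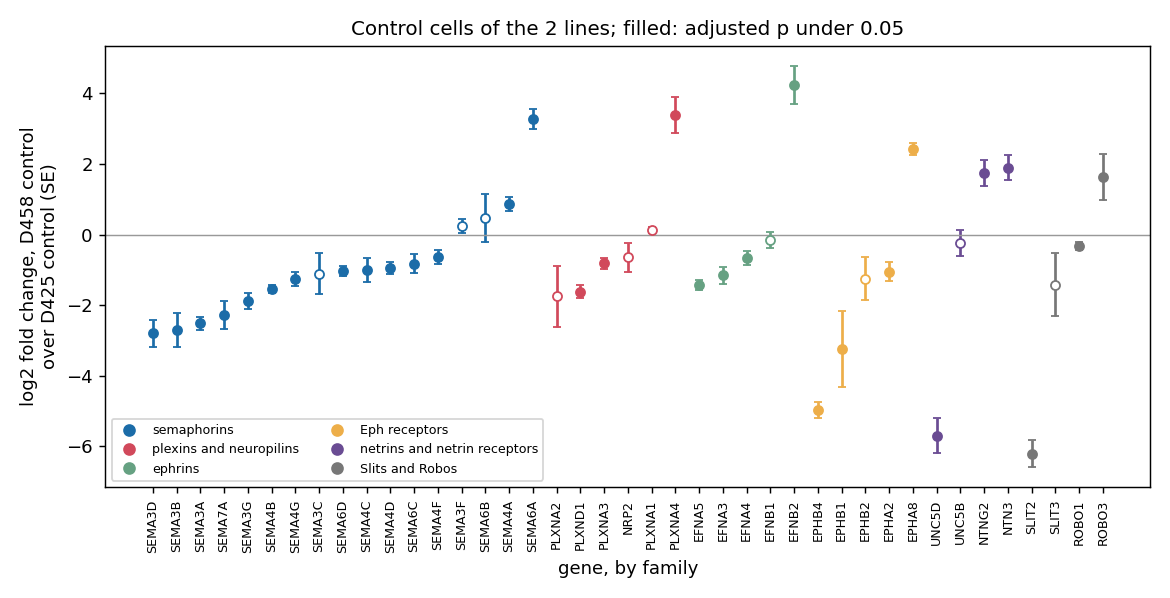
Log2 difference of D458 control cells over D425 control cells for 41 members averaging at least 1 CPM and with more than 3 counts in each control group (points, with standard errors, n = 3 libraries per line), filled where the adjusted p was under 0.05. EFNB2, PLXNA4 and SEMA6A lie above 3, and SLIT2, UNC5D and EPHB4 lie below -4.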

How the data were processed

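Strand-specific poly(A) RNA was sequenced from 18 libraries in 6 groups of 3, per the labels' protocols. The deposited table holds raw read counts per gene symbol, which the submitters' processing notes tie to TopHat2, Bowtie2, Picard and HTSeq on GRCh37 (hg19). Neither their versions, nor the strand setting, nor the handling of reads with several matches was given in these sources. The symbol rule was applied to the table, and the members and lists were chosen with earlier results of these data known. Named genes are those called with both hairpins of a line, in the difference between lines, or among the 6 with the largest change in each direction between controls, with the most abundant of each family and up to 4 called genes of each list of partners. Others are given by role.

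Counts were fitted in edgeR 4.0.16 (R 4.3.3) with TMM factors, filterByExpr at a minimum count of 10, and the robust quasi-likelihood test over all 18 libraries with the 6 groups as terms, which left 14850 genes and 12 residual degrees of freedom. The common biological coefficient of variation was 0.153. Alternatives were DESeq2 1.42.0, RLE factors, no filter, each line alone, libraries or replicate numbers left out, and the replicate number as a block within a line. Same-numbered libraries carry the same number (7, 9 or 10) in the labels' library names, which the labels do not explain. The pairing was taken from the data: deviations of same-numbered libraries from their group means correlated by 0.105 to 0.684 in D425 and 0.209 to 0.815 in D458, positive in every pair. Promoters came from RefSeq on GRCh38.p14, matched by symbol for 44 of 53 members, and were not set against the authors' coordinates.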

Additional observations from a re-analysis of the deposited data

Results flagged for a closer look

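For 6 genes the effect of hairpin 8 differed between the lines by a test of the difference itself, edgeR's quasi-likelihood test adjusted over all genes. The D458 change minus the D425 change was 2.82 ± 0.26 (BH-adjusted p = 1.1e-05) for PLXND1, which rose in D458 and fell in D425, each in 3 of 3 libraries beyond all controls. It was 1.91 ± 0.40 (BH-adjusted p = 0.00689) for SEMA6C, 1.39 ± 0.40 (BH-adjusted p = 0.0341) for SEMA6A, 1.32 ± 0.26 (BH-adjusted p = 0.00423) for SEMA4D and 1.03 ± 0.25 (BH-adjusted p = 0.0157) for SEMA3A, and -1.76 ± 0.48 (BH-adjusted p = 0.0285) for NTN3. EYA2 itself changed by -0.98 in D425 and -1.79 in D458 with hairpin 8, so line and knockdown cannot be told apart. Of the 6 differences, those of SEMA6A and NTN3 depended on single libraries, and the other 4 did not. With a replicate number left out of every group, only that of PLXND1 passed each time.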

How the results depend on the processing

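The members called kept their direction in every alternative run, and RLE factors in place of TMM changed no call. With the replicate number as a block, more members were called than as reported: 22 with D425 hairpin 6, 27 with D425 hairpin 8, 18 with D458 hairpin 8, 15 for the difference between lines and 20 with both D425 hairpins. The shares of all genes called in the alternative runs are not given here, so their counts of members have no background. Under the block the D458 hairpin 7 call of SEMA3D was the only hairpin call lost. A change of at least 2-fold as a second condition left 7 members with D458 hairpin 7. With 1 library or 1 replicate number left out, the counts of members called ranged over 0 to 21 with D425 hairpin 6, 3 to 23 with D425 hairpin 8, 3 to 12 with D458 hairpin 7, 2 to 9 with D458 hairpin 8, 1 to 15 for the difference and 29 to 40 between controls. They ranged over 0 to 17 with both D425 hairpins, 2 to 8 with both D458 hairpins, and 0 to 0 between hairpins of a line. The lowest of these counts came without replicate 2 (between controls also without replicate 3). Leaving out any replicate number leaves 2 libraries per group. Without replicate 1, more members were called with D425 hairpins 6 and 8 (21 and 23) than as reported (13 and 14). DESeq2 called 15, 18, 14 and 10 members with the hairpins in the order above, and the fit without a filter 11, 14, 9 and 7. Without the filter EFNB1 and SEMA3B (D458 hairpin 8), SEMA3D and UNC5B (D458 hairpin 7), NRP2 and SEMA6B (D425 hairpin 6) and the difference of NTN3 no longer passed. With the 9 libraries of a line alone, NTN3 (both D425 hairpins), UNC5B (D425 hairpin 8) and SEMA3D (D458 hairpin 7) did not pass. A rule of 50 counts in place of 10 would have kept 41 members. The medians over members averaging at least 10 CPM were added after seeing the data. In the hairpin comparisons, members with under 30 counts in both groups together were given no fold. A missing call there does not show that they were unchanged. Of these, EPHA4 with D425 hairpin 8, at 20 counts against 1 in controls, passed with the block. EPHA4 met the count rule through hairpin libraries alone, so that result is a description. The cause of the moves above was not tested.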
